A study of Schizosaccharomyces pombe with 14 samples.

Results

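Deletion of maf1 in Schizosaccharomyces pombe growing in rich medium was compared with wild type across all genes, from the 3 deletion and 3 wild-type libraries of the 0 h time point, which make up 6 of the 42 libraries and 2 of the 14 samples of the series. The wild type was the h- strain AGP72 and the deletion the h+ strain AGP256, in which natMX replaced maf1, so genotype and mating type changed together. Both grew vegetatively to log phase in YES, a rich medium. RNA was poly(A)-selected and sequenced as stranded paired-end libraries. The series went on to starve both strains of phosphate for up to 48 h, and the 0 h libraries are its unstarved starting point.

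Maf1 is a conserved repressor of RNA polymerase III, the enzyme that makes tRNAs, 5S rRNA and other small RNAs. It is held off by TOR signalling in well-fed cells and acts when nutrients run short. In fission yeast the phosphate genes pho1, pho84 and tgp1 are each preceded by a long noncoding RNA whose transcription shuts the downstream gene in phosphate-rich medium.

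The strains differed widely. Of 6521 genes tested, 901 (13.8%) were higher and 1036 (15.9%) lower in the deletion, 29.7% in all, where a gene was called at an adjusted p under 0.05 and a change of at least 2-fold (edgeR's quasi-likelihood test with Benjamini-Hochberg adjustment). Changes over 8-fold were more often falls, with 234 genes lower and 54 higher. Values are counts per 1000000 counts of a library (CPM) after TMM scaling, and log2 changes are deletion against wild type. Library totals were 16603156 to 26359389 counts in the wild type and 37919700 to 42177359 in the deletion, so depth moved with genotype. When every library was thinned to 12157201 counts, 685 genes were higher and 1095 lower. Each p-value rests on the spread between libraries of a group, estimated together over all 42 libraries of the series. The labels do not say that replicates came from separate cultures, so this spread may cover technical error alone.

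The deleted gene was lower in the deletion but still counted there. maf1 (SPAC31G5.12c) stood at 23.0, 20.9 and 22.6 CPM in the 3 libraries of the wild type and at 7.13, 6.34 and 6.85 CPM in the 3 deletion libraries. The groups did not overlap, and the change was -1.71 (log2, SE 0.09, adjusted p = 3.59e-19). At 4 to 48 h the same strain difference was larger, at -5.08 at 4 h and -5.24 at 48 h, with 2.33 ± 0.496 CPM (SD, n = 3) in the deletion at 4 h against 78.5 ± 4.41 CPM in the wild type. Among the 3 listed genes on each side of maf1, eta2, which encodes a predicted RNA polymerase I termination factor, fell by 1.63, and the annotated antisense RNA SPAC31G5.21-antisense-1 rose by 2.16 from under 1 CPM. The other neighbours, pac2 (0.55), SPAC31G5.21 (0.86), rpn11 (0.70) and SPNCRNA.873 (0.44), were not called.

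Mating-type genes followed the labels in part. mam2, the P-factor receptor gene of h- cells, was at 171, 139 and 186 CPM in the wild type and 2.67, 4.01 and 3.51 CPM in the deletion. It fell by 5.61, and the M-factor genes mfm2 (-2.78) and mfm3 (-1.29) fell with it. mfm1, a further M-factor gene, was under 1 CPM in every library of both groups and was not called. Of 5 genes listed as typical of h+ cells, 1 was higher and 3 (60%) lower in the h+ deletion. The M-factor receptor gene map3 rose by 1.41, whereas map1 fell by 1.57. map2, the gene for P-factor, was at 111, 106 and 108 CPM in the h- wild type and at 6.36, 5.71 and 5.57 CPM in the h+ deletion. Of the 12 listed M genes 8 were tested, of which 3 (37.5%) were lower, 0 higher and 5 not called. Over all genes 13.8% were higher and 15.9% lower. The 12 M genes summed to 400 to 454 CPM in the wild type and 194 to 204 CPM in the deletion. The 5 P genes, including the protease gene sxa1, summed to 1592 to 1736 and 571 to 598 CPM. The 4 mating-type cassette genes in the table had no counts in either group. Mating type and maf1 cannot be told apart for any of these genes, nor for the other differences described here.

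Around pho1 and pho84, which stand next to each other on chromosome II, the phosphate genes were higher and their upstream noncoding RNAs lower in the deletion. prt2, the RNA that precedes pho84, was at 71.5, 86.3 and 78.7 CPM in the wild type and 15.4, 17.5 and 16.5 CPM in the deletion, a fall of 2.26 (log2, SE 0.08). pho84 itself, a phosphate transporter gene, was at 188, 245 and 196 CPM against 873, 1012 and 995 CPM. Every deletion library lay above every wild-type library for pho84, and below for prt2.

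The same opposite pair stood at the acid phosphatase gene. nc-pho1, the noncoding transcript of the pho1 locus, was at 19.0, 20.4 and 20.9 CPM in the wild type and 4.84, 4.09 and 3.42 CPM in the deletion (log2 -2.28, SE 0.15, adjusted p = 1.6e-16). pho1 was at 61.1, 68.3 and 57.0 CPM against 773, 1064 and 1013 CPM (log2 3.94, SE 0.09, adjusted p = 5e-30). The next protein-coding gene beyond pho1 is fub2, for a predicted PI31-type proteasome regulator, and it had one of the largest falls of all genes, from 390, 404 and 393 CPM to 0.748, 0.879 and 0.978 CPM. On the other side of prt2 lies ecl3, a gene of a family that extends chronological lifespan, which rose by 5.39 from 18 counts in 3 libraries to 1127.

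At tgp1 the gene and its noncoding RNA fell together. tgp1, a glycerophosphodiester transporter gene, went from 45.6, 49.1 and 48.7 CPM to 14.5, 11.1 and 13.4 CPM, and nc-tgp1 from 41.2, 45.5 and 46.5 CPM to 13.3, 14.5 and 16.2 CPM. The changes were -1.87 (SE 0.09) for tgp1 and -1.60 (SE 0.10) for nc-tgp1. Both extracellular nucleotidase genes rose, SPAC1039.02 by 3.49 and the subtelomeric SPBPB2B2.06c by 6.92, the latter from 9 counts in all 3 wild-type libraries to 1677.

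**Figure D1:**
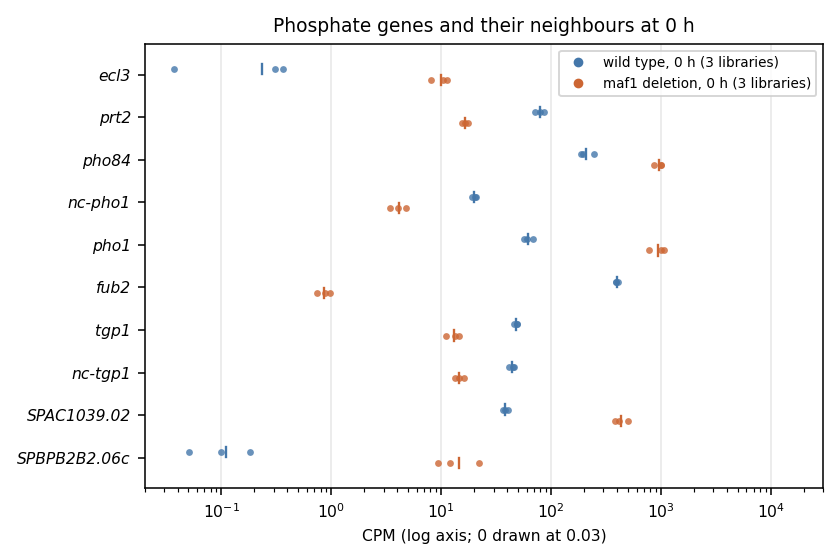
CPM (log axis) of phosphate genes and neighbouring transcripts in the 3 wild-type and 3 deletion libraries at 0 h; points are libraries and ticks are group means. pho84 and pho1 lie higher in the deletion and prt2, nc-pho1 and fub2 lower, while tgp1 and nc-tgp1 are both lower.

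At 4 h without phosphate pho1 was at 14124 ± 647 CPM in the wild type and 14925 ± 465 CPM in the deletion (SD, n = 3), and the strain difference was 0.08 (log2). The strain difference at 0 h minus its mean over 4 to 48 h was tested in the same model, and it was 4.12 for pho1 (adjusted p = 6.74e-30), 2.40 for pho84, -2.46 for prt2 and -4.09 for nc-pho1. For fub2 this contrast was -10.88, since fub2 was higher in the deletion by 2.63 at 24 h and 3.32 at 48 h.

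Lists of phosphate-response genes differed in how often they were called, beside 13.8% higher and 15.9% lower over all genes. In the phosphate acquisition list itself 4 of 12 genes (33.3%) were higher and 2 (16.7%) lower. In the inositol pyrophosphate and polyphosphate list 3 of 12 genes (25%) were higher and 0 lower. The 3 were siw14 and aps1 (1.72), for pyrophosphatases, and nrf1 (1.77), for a subunit of the vacuolar polyphosphate synthase complex. siw14 was at 45.8, 45.5 and 46.2 CPM in the wild type and 132, 125 and 131 CPM in the deletion. In the termination and regulator list 2 of 25 (8%) were higher and 1 (4%) lower, both below the shares of all genes. ssu72, for a phosphatase of the cleavage and polyadenylation machinery, was at 10.3, 12.1 and 8.75 CPM in the wild type and 46.7, 45.2 and 43.2 CPM in the deletion. duf89 (1.62), for a metal-dependent phosphatase, rose as well, and mmi1, for the RNA-binding protein that sends meiotic transcripts to the exosome, fell by 1.14.

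Among the listed RNA polymerase III genes, the TFIIIB subunit gene brf1 changed most. brf1 was at 5.29, 5.94 and 4.74 CPM in the wild type and 38.3, 36.0 and 38.1 CPM in the deletion (log2 2.83, SE 0.06, adjusted p = 1.02e-30). Of 17 polymerase III subunit genes 5 (29.4%) were higher and 0 lower, beside 13.8% and 15.9% of all genes. Among the 5 were rpc19 at 1.37 and rpb6 at 1.24, both for subunits shared with other polymerases. Of 11 genes for TFIIIB, TFIIIC and other polymerase III factors 3 (27.3%) were higher and 2 (18.2%) lower, and 1 was higher with library size alone. The TFIIIC gene sfc4 (-1.59) and the TATA-binding protein gene tbp1 (-1.26) fell. With library size alone as the scaling 1 of the 17 subunit genes was called higher, and 494 of all 6521 genes were.

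Of the lists of RNA polymerase I, tRNA-handling and translation factor genes, only the polymerase I list exceeded the 13.8% of all genes called higher. None reached the 15.9% called lower. Of 14 polymerase I genes 3 (21.4%) were higher, led by rpa43 (1.37), and 0 lower. Of 54 genes for tRNA processing and modification 6 (11.1%) were higher and 2 (3.7%) lower. Among these the Elongator gene elp5 was at 1.51 and the isopentenyltransferase gene tit1 at -1.25. Of 19 aminoacyl-tRNA synthetase genes 2 (10.5%) were higher, wrs1 (1.36) and ala1 (1.02). Of 35 translation factor genes 2 (5.71%) were higher, tif51 (1.51) and tef5 (1.18), and tif5, for initiation factor eIF5, fell by 1.39.

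Transcripts of tRNA genes themselves were barely sampled. Summed over all 187 tRNA genes, their level was 11.1 to 14.2 CPM in the wild type and 2.2 to 3.1 CPM in the deletion, or 972 and 299 counts in total. Of the 94 that passed the filter on low counts 38 were lower and 0 higher, against 15.9% and 13.8% of all genes. Each of the 38 had a mean under 1 CPM in the wild type, and 25 were lower after thinning. Poly(A)-selected libraries capture only those tRNA transcripts that carry a poly(A) tail, and tRNA copies share sequence, so single tRNA genes are uncertain and these counts say nothing of mature tRNA.

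Of 7 genes with snRNA identifiers, a set that includes the snoRNA gene snu32, 5 (71.4%) were lower and 0 higher. Over all genes 15.9% were lower and 13.8% higher. By annotated type 3 of 5 snRNA genes were lower and 0 higher. Of 43 snoRNA genes by type 14 were higher and 10 lower. snu32, a U3 snoRNA gene, fell from 34.1, 29.8 and 32.1 CPM to 2.02, 1.98 and 2.09 CPM, and snu5, for the U5 spliceosomal RNA, by 4.39 from 2.70 ± 0.370 CPM (SD, n = 3). Of 39 genes with snoRNA identifiers, which leave out snu32, 13 (33.3%) were higher and 8 (20.5%) lower. snR93 (-3.14) and snr79 (-2.06) were lowest among those of the 39 at 10 CPM or more. rRNA made up 0.00289 to 0.00309% of counts in the wild type and 0.0279 to 0.0392% in the deletion, a difference that moved with genotype and whose part in the other results was not tested.

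Cytoplasmic ribosomal protein genes were often higher. Of 141 such genes 66 (46.8%) were higher and 0 lower in the deletion, beside 13.8% and 15.9% of all genes. The list median was 0.96, beside 0.12 over all genes tested. The 141 genes took 18.7 to 20% of all counts in the deletion libraries and 12 to 12.5% in the wild type. rps1401, one of the genes for the small-subunit protein S14, stood out from the list at 41.0, 38.8 and 38.8 CPM in the wild type against 423, 433 and 397 CPM (log2 3.40, SE 0.08), while rpl3002 (1.63) and rps2601 (1.62) came next. The other calls lay between 1.00 and 1.63. The count was 30 with TMM scaling from protein-coding genes, 36 after thinning and 12 with library size alone. Over all genes 632, 685 and 494 were higher in the same settings. The list median stayed above 0 under each scaling, at 0.68 with library size alone beside -0.16 over all genes. Paralogous ribosomal protein genes share sequence, and their split depends on the authors' counting.

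Of 97 ribosome biogenesis genes 11 (11.3%) were higher, no larger a share than the 13.8% of all genes, and 0 were lower. With library size alone 4 were higher and 2 lower. The rises were led by rrp17 (1.79), for an rRNA exonuclease, and nop10 (1.56), for a component of box H/ACA particles. Of 56 genes for mitochondrial ribosomal proteins 10 were higher, and mrpl27 (-1.96) was lower. With library size alone 2 were higher and 2 lower.

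Gene length moved with the strain difference. Among 5046 protein-coding genes with a length in the reference gene table, the shortest 25% of genes (145 to 1221 bp) had a median log2 change of 0.57, with 24.7% higher and 10.3% lower, and the longest 25% (2556 to 15232 bp) had a median of -0.17, with 4.52% higher and 13.7% lower. Spearman's rho between length and log2 change across these genes was -0.31 at 0 h, -0.22 at 4 h and 0.01 at 24 h. Ribosomal protein genes are short, and the part of length in their difference was not tested.

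Many glycolytic genes were higher in the deletion and fbp1, the gluconeogenic gene that glucose represses, was far lower. Of 26 glycolysis and fermentation genes 13 (50%) were higher, 11 were not called and 2 (7.69%) were lower, beside 13.8% higher and 15.9% lower over all genes. The 2 were the pyruvate decarboxylase gene pdc102 (-4.00), at under 1 CPM in both group means, and the aldehyde dehydrogenase gene atd3 (-2.34). The list median was 1.03, and this group took 7.03 to 7.31% of counts in the deletion against 2.18 to 2.42% in the wild type. tdh1, for glyceraldehyde-3-phosphate dehydrogenase, was at 1768, 1317 and 1870 CPM in the wild type and 11048, 11318 and 9753 CPM in the deletion. fba1 (2.33), hxk2 (2.33), pdc101 (2.28) and gpm1 (2.61), for aldolase, hexokinase, pyruvate decarboxylase and phosphoglycerate mutase, rose by like amounts. With library size alone 12 genes of the list were higher.

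fbp1, for fructose-1,6-bisphosphatase, was at 376, 269 and 409 CPM in the wild type and 3.67, 3.84 and 4.95 CPM in the deletion, an 84.8-fold fall (log2 -6.41, SE 0.17). Of 38 genes of gluconeogenesis and glucose repression 10 (26.3%) were lower and 5 (13.2%) higher, beside 15.9% and 13.8% of all genes. The high-affinity hexose transporter gene ght1 fell by 3.39, while ght2 (3.01), for another hexose transporter, and the malic enzyme gene mae2 (3.95) rose. mae2 was at 141, 141 and 147 CPM in the wild type against 2175, 2280 and 2169 CPM.

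Among biosynthetic genes nearly all calls were rises. Of 72 amino acid biosynthesis genes 23 (31.9%) were higher and 1 (1.39%) lower, the transcription factor gene atf31. Over all genes 13.8% were higher and 15.9% lower. sua1, for the sulfate adenylyltransferase that opens sulfate assimilation, was at 158, 164 and 150 CPM in the wild type and 1300, 1268 and 1220 CPM in the deletion, and the homocysteine synthase gene met17 rose by 2.29. Of 23 nucleotide synthesis genes 11 (47.8%) were higher and 0 lower. The uridylate kinase gene ura6 was at 2.49, ade7 at 1.86 and cdc22, for the large subunit of ribonucleotide reductase, at 1.67. With library size alone 12 amino acid and 6 nucleotide synthesis genes were higher, and 494 of all 6521 genes.

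Core stress genes went both ways. Of 46 such genes 11 (23.9%) were higher and 9 (19.6%) lower, beside 13.8% and 15.9% of all genes. At one end were rds1 (3.98), sro1 (3.04) and the quinone reductase gene obr1 (2.32). At the other were gst3 (-3.19), the metallothionein gene zym1 (-2.45) and hsp16 (-2.31). Among 32 heat shock and chaperone genes 5 (15.6%) were lower, including hsp104 (-2.09), a share close to that of all genes, and 1 (3.12%) was higher. The hsp16 level varied within the deletion, at 81.3, 29.9 and 50.5 CPM, yet lay below 268, 262 and 275 CPM in the wild type.

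Of 32 iron and heme genes 6 (18.8%) were higher and 5 (15.6%) lower, shares close to the 13.8% and 15.9% of all genes. fra3, for an iron-sulfur cluster transfer protein, rose by 4.28, from 1.51, 1.38 and 1.65 CPM to 28.7, 30.6 and 30.1 CPM, and frp1, for a ferric reductase, fell by 2.98. Of 8 thiamine-repressed genes 3 were lower, with the thiamine transporter gene thi9 at -2.35 and nmt1 at -3.04. Of 35 nitrogen genes 8 were lower and 5 higher, among them the amino acid permease genes isp5 (-2.85) and meu22 (-4.56) and the transporter genes aat1 (2.86) and ptr2 (2.53).

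Many genes of mating and meiosis were lower in the deletion. Of 42 genes of sexual differentiation and meiosis entry 18 (42.9%) were lower, 22 were not called and 2 (4.76%) were higher. Over all genes 15.9% were lower and 13.8% higher. The 2 were the meiotic recombination gene rec27 (2.96), at under 2 CPM in both group means, and rep1 (1.16), for a transcription factor. mde6, a kelch-repeat gene expressed in meiosis, was at 2038, 1910 and 2143 CPM in the wild type and 40.5, 40.9 and 36.7 CPM in the deletion. The noncoding meiRNA sme2 fell by 4.67, and the meiotic recombination gene rec10 changed by -3.03. ste11 (-1.43), for the master regulator of mating, and spk1 (-1.37), for the pheromone-pathway kinase, fell as well. Of 113 protein-coding genes whose names mark meiotic upregulation (mug, meu) 36 (31.9%) were lower, 13 (11.5%) higher and 64 not called. Among 11 transcripts known as Mmi1 targets, a list chosen after the values had been seen, 3 were lower and 0 higher, namely sme2, rec10 and mei4 (-1.92), and mug8 (-0.59), ssm4 (-0.58) and rec8 (-0.17) were not called.

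The UPF0300 family, a set of fission yeast proteins without a known role, was also picked out after its values had been seen. Of its 6 genes 4 (66.7%) were lower and 0 higher, beside 15.9% and 13.8% of all genes. SPCC737.04 went from 842, 725 and 834 CPM to 5.29, 5.33 and 4.84 CPM, meu27 from 319, 319 and 344 CPM to 2.37, 1.98 and 2.39 CPM and mug133 from 164, 149 and 164 CPM to 3.02, 2.53 and 3.31 CPM. mug131 fell by 2.53 from 2.56 ± 0.397 CPM (SD, n = 3).

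**Figure D2:**
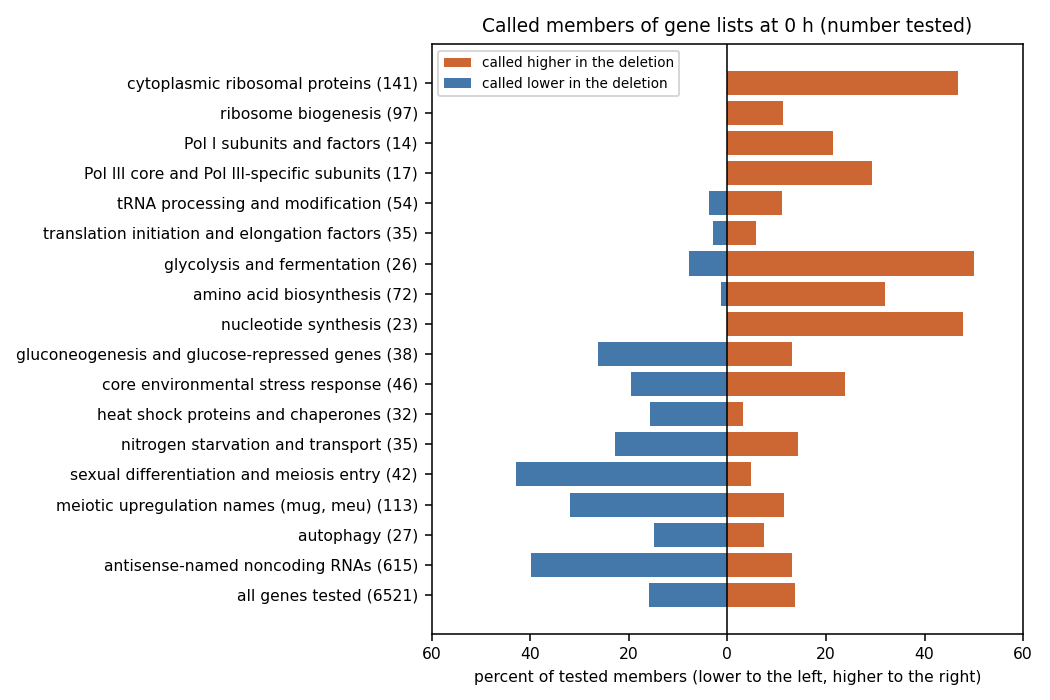
Percent of the tested members of each gene list that were called higher (right) or lower (left) in the deletion at 0 h, with the number tested in brackets and all genes tested in the lowest bar. Ribosomal protein, glycolysis and nucleotide synthesis genes extend to the right, and sexual differentiation genes and antisense RNAs to the left.

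Cell surface, cell wall, cell cycle and histone lists were called about as often as all genes (29.7%). Of 21 flocculin and cell surface genes 5 were higher, among them the flocculin genes pfl7 (5.15) and pfl8 (2.87), and the MADS-box factor gene mbx1 (-3.34) was lower. Of 34 cell wall genes 6 (17.6%) were higher and 4 (11.8%) lower, beside 13.8% and 15.9% of all genes, with the cell-separation gene adg2 at 1.73 and the glucan synthase gene bgs3 at -1.31. Of 49 G1 to S and replication genes 10 (20.4%) were higher and 4 (8.16%) lower, led by the GINS gene psf3 (2.81) and, downward, mcm5 (-1.58). Of 12 histone genes, whose copies are nearly identical, 4 were higher.

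Most of the remaining lists were called no more often than all genes, of which 13.8% were higher and 15.9% lower. Of 39 respiratory chain genes 3 (7.69%) were higher and nde1 (-1.71), for an NADH dehydrogenase, was lower. Of 22 TCA cycle and glutamate genes 3 (13.6%) were higher, led by gln1 (1.91), and 0 lower. Of 42 sterol and lipid genes 6 (14.3%) were higher, led by erg28 (1.80), and 2 (4.76%) lower, led by psd2 (-1.81). Of 27 autophagy genes 4 (14.8%) were lower, led by atg4 (-1.86), and 2 (7.41%) higher. The list of 56 TOR, AMPK and PKA signalling genes had 5 (8.93%) in each direction, with the kinase gene ppk31 at -2.24. Of 35 proteasome genes 1 was called, rpn2 (-1.39). Of 15 copper and zinc genes 2 (13.3%) were lower and 1 (6.67%) higher. Of 11 anaerobic and hypoxia genes 2 (18.2%) were lower and 1 (9.09%) higher, and of the 3 ecl genes ecl3 was higher.

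The 15 largest falls started from means of 25.0 to 2030 CPM in the wild type and ended at means of 0.0637 to 39.4 CPM in the deletion, the highest of these being mde6. SPBPB2B2.18, a subtelomeric gene for a plasma membrane protein, was at 46.0, 81.3 and 69.7 CPM in the wild type and at 0, 0.0824 and 0.109 CPM in the deletion, 7 counts in all. cmt2, for an O-methyltransferase, was at 1393, 1345 and 1675 CPM against 2.59, 3.08 and 2.42 CPM (log2 -9.09, SE 0.19, adjusted p = 1.05e-31), and its relative cmt1 fell by 4.44. The gene for the UDP-glucose 4-epimerase gal10 fell by 5.52, from 370, 293 and 433 CPM to 8.11, 7.28 and 8.48 CPM, while its cluster partners gal1 (0.95) and gal7 (0.22) were not called. Others of the 15 largest falls were SPAC977.18 (-7.39), ftm2 (-5.15), meu7 (-4.99), SPCC330.03c (-4.84) and mug147 (-4.69). prz1, for the calcineurin-responsive transcription factor, lies outside those 15 and was named after its values had been seen, at 1986, 1936 and 2128 CPM against 120, 116 and 119 CPM.

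Among the largest rises, the adjacent subtelomeric genes SPBPB10D8.01 and SPBPB10D8.02c, for a predicted cysteine transporter and a predicted arylsulfatase, rose by 4.17 and 5.62. SPBPB10D8.02c went from 0.756, 0.922 and 0.588 CPM to 32.5, 41.5 and 35.9 CPM. The aldehyde dehydrogenase gene atd1 (3.68), the GPI-anchor protein gene SPBPB7E8.01 (3.55), SPAC25B8.12c (3.24), for a HAD-family hydrolase, and the kinase gene ppk1 (3.10) followed. None of the 30 genes overlapped between groups, but this was part of the rule that chose them, and over all genes tested 84.8% did not overlap.

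**Figure D3:**
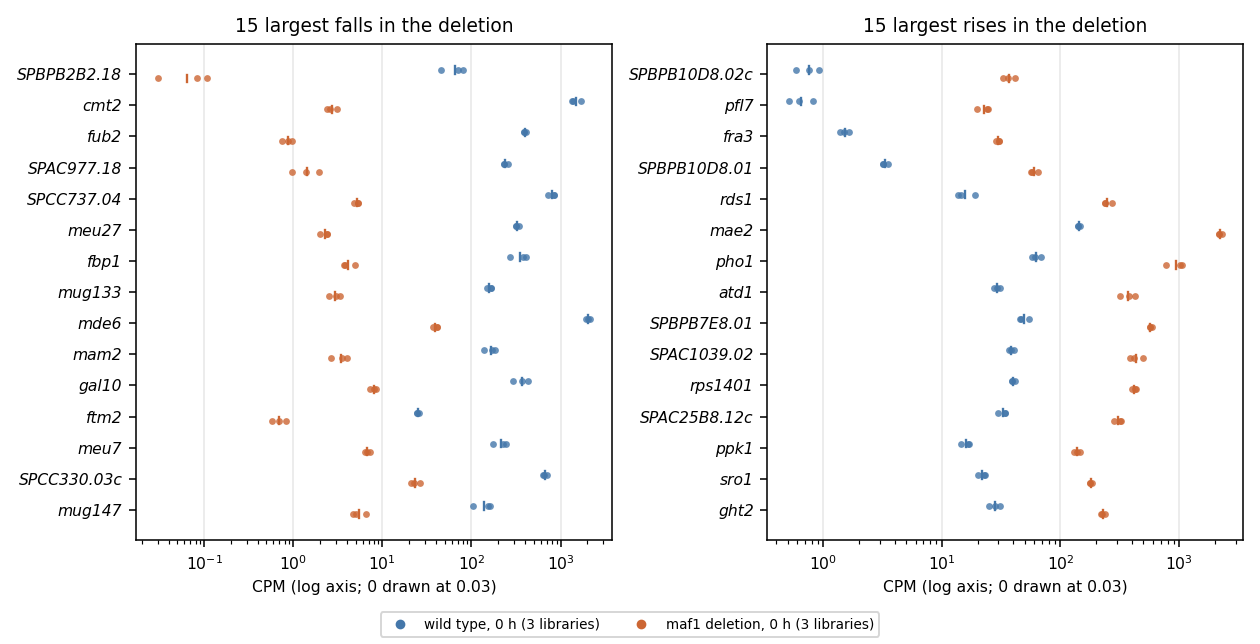
CPM (log axis) of the 15 protein-coding genes with the largest falls and the 15 with the largest rises at 0 h, with 3 wild-type and 3 deletion libraries as points and group means as ticks. The libraries of a group lie close together beside the distance between groups; a library without counts is drawn at the left edge.

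The falls mostly marked RNAs that were at their highest in the unstarved wild type. In 11 of the 15 largest falls the wild type at 0 h had the highest mean CPM of all 14 samples, and in 11 the deletion at 0 h had the lowest. In 12 of the 15 largest rises the wild type at 0 h was the lowest of the 14. Over the 1036 genes called lower, the wild type at 0 h was the highest of the 14 samples in 57.9%, against 19.6% of all genes tested. The choice of genes lower in the deletion raises that share by itself, and no test was made.

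Noncoding RNAs carried many of the falls. Of 1266 noncoding RNA genes tested 426 (33.6%) were lower and 196 (15.5%) higher. Over all genes 15.9% were lower and 13.8% higher, and over protein-coding genes 10.7% and 13.4%. Noncoding RNAs took 3.18 to 3.25% of counts in the wild type and 1.29 to 1.33% in the deletion. Of 615 named as antisense to a gene, 245 (39.8%) were lower and 80 (13%) higher. prl14 was at 191, 170 and 197 CPM in the wild type and 0.998, 0.961 and 0.761 CPM in the deletion, and cbp6-antisense-1 at 338, 344 and 350 CPM against 1.72, 2.47 and 2.15 CPM. pvg3-antisense-1 (-8.07) and SPNCRNA.1482 (-7.01) fell as far. Among those with a mean of at least 10 CPM over the 6 libraries and no overlap between groups, the largest rises were those of meu16 (6.03), pof9-antisense-1 (5.95), imt2-antisense-1 (3.21), pep3-antisense-1 (3.00) and hop1-antisense-1 (2.45).

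Some antisense falls came with a rise of the sense gene. ser2-antisense-1 went from 200, 186 and 207 CPM to 0.848, 1.46 and 0.869 CPM, and ser2, for phosphoserine phosphatase, from 33.1, 36.6 and 35.7 CPM to 171, 190 and 181 CPM. Like pairs were tim54 (2.39) with tim54-antisense-1 (-4.35) and pdp2 (2.60) with SPBC215.07c-antisense-1 (-3.54). Of 239 pairs whose antisense RNA was lower, 12.1% had a sense gene called higher and 15.1% one called lower, beside 12.9% and 14.2% over all 598 pairs. Of 80 pairs whose antisense RNA was higher, 22.5% had a sense gene called higher and 16.2% one called lower. The kit keeps strand, but the strand setting used for counting is not given in the sources used here, so reads of a gene and of its antisense partner cannot be told apart with certainty.

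**Figure D4:**
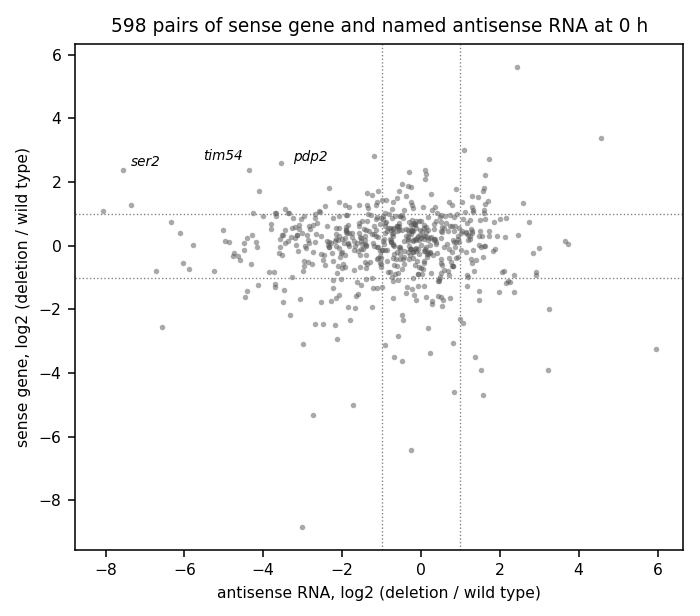
Log2 change (deletion against wild type at 0 h) of 598 named antisense RNAs on the x axis and of their sense genes on the y axis; each point is 1 pair and dotted lines mark 2-fold. The points spread to the left along the x axis with sense genes on both sides of 0, and ser2, tim54 and pdp2 lie at the upper left.

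Called genes were more frequent at most chromosome ends. In the reference gene order, 48.7% of the 300 genes nearest the ends of the 3 chromosomes (50 at each) were called, 67 higher and 79 lower, against 29.7% of all genes. The last 50 genes of chromosome I had 25 lower and 2 higher, and those of chromosome III 18 higher and 5 lower. At the other end of chromosome III 30% of the first 50 genes were called, close to the share of all genes. Whole chromosomes hardly differed, with medians of 0.10, 0.14 and 0.12 for I, II and III. Around mat1-Mc 4 of 9 genes tested were lower and 1 higher, and around mat3-Mc 1 of 6 was higher. Near-identical subtelomeric copies share reads, so single genes there are uncertain.

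At 4 h without phosphate most of these genes were not called the same way. At 4 h 149 genes (2.28%) were higher and 371 (5.69%) lower. Genes called higher made up 1.89% at 8 h, 3.14% at 12 h, 6.96% at 24 h, 11% at 36 h and 14.3% at 48 h, and genes called lower 4.92%, 4.6%, 6.2%, 6.96% and 8.17% at the same times. Of the 901 genes higher at 0 h, 38 (4.22%) were higher at 4 h, which is 25.5% of those higher at 4 h, and 57 were lower. Of the 1036 lower at 0 h, 149 (14.4%) were lower at 4 h, 40.2% of those lower then, and 55 were higher. Of the 1937 genes called at 0 h, 1031 were called at none of the 6 later times and 44 were called the same way at all of them, 10 higher and 34 lower. These 44 include maf1, mam2, mfm2, mfm3, spk1, pfl7, meu7 and SPBPB10D8.01.

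The test of the difference itself called 2170 genes (33.3%), 1018 (15.6%) with a more positive and 1152 (17.7%) with a more negative strain difference at 0 h than over 4 to 48 h. Among the genes higher at 0 h 673 (74.7%) were in the first set, and among those lower 862 (83.2%) in the second, shares that the choice of genes by their 0 h difference raises by itself. Ribosomal protein genes had a median strain difference of 0.96 at 0 h, -0.94 at 4 h and 0.50 at 48 h, and none of the 66 genes higher at 0 h was higher at 4 h. Glycolysis genes went from 1.03 at 0 h to 0.09 at 4 h and -1.18 at 48 h. The times share no library, but phosphate and medium changed together after 0 h.

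**Figure D5:**
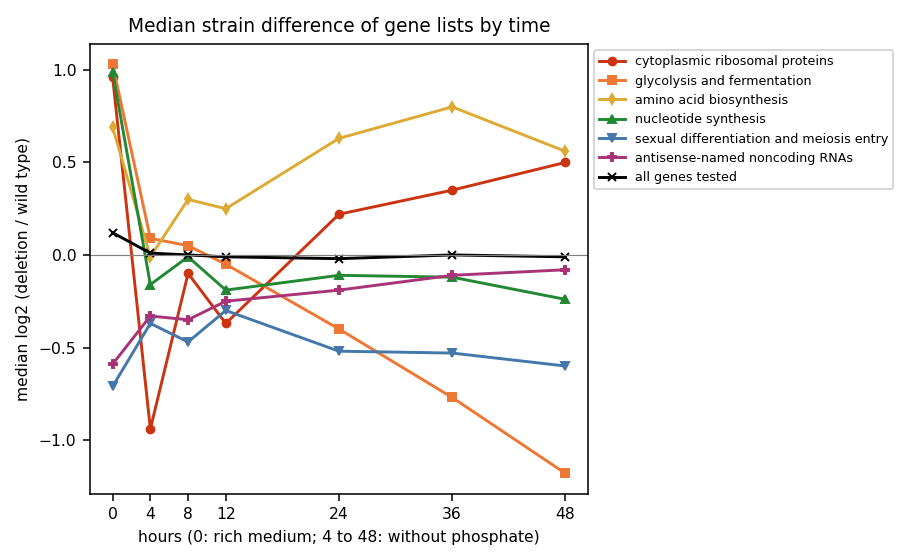
Median log2 strain difference (deletion against wild type) of 6 gene lists and of all genes tested at 0 h in rich medium and at 4 to 48 h without phosphate. Medians of ribosomal protein, glycolysis, amino acid and nucleotide genes are highest at 0 h or, for amino acid genes, at 36 h, and ribosomal protein genes are below 0 at 4 h.

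The authors' deposited table of the same comparison, read with the same thresholds, gave 801 genes higher and 1100 lower of 6761 with an adjusted p-value (11.8% and 16.3%). Of these, 798 and 1033 were also called here, which is 99.6% and 93.9% of the calls in the authors' deposited table and 88.6% and 99.7% of those made here. No gene was called in opposite directions.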

How the data were processed

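The authors deposited 1 table of estimated counts per gene for 42 libraries; the submitters' processing notes name HISAT2 2.1.0, SAMtools, HTSeq 0.10.0, DESeq2 and genome build ASM294v2, with no role for each. Strand setting, multi-mapping treatment and annotation version are not given in the sources used here. In the deposited counts 0.5 stands for 0 in 6.51% of 293538 values, and counts were rounded, 0.5 to 0. The authors' deposited comparison holds log2 changes, adjusted p-values and a mean normalised signal per gene, and its file header carries DESeq2's column names. The 0 h libraries held 16603156 to 42177359 counts, and counting error weighs more in genes at low CPM. The CPM above which it is small beside replicate spread was not determined.

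With R 4.3.3 and edgeR 4.0.16, genes passing filterByExpr (14 groups) were TMM-scaled and fitted by quasi-likelihood with 1 mean per group over all 42 libraries, which share 1 estimate of spread (28 residual degrees of freedom). Every adjusted p printed for a gene comes from this model. Calls needed a Benjamini-Hochberg adjusted p under 0.05 and at least 2-fold. A simulated set with known changes tested the script. Alternatives were other scalings, DESeq2 1.42.0, no filter, thinning, the 6 libraries alone with or without a replicate block, and leaving out each library.

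Members and gene lists were chosen with earlier results of these data known, so no list was tested. Named genes are maf1 with 3 neighbours each side, the 15 largest falls and rises among called protein-coding genes (groups not overlapping, mean of at least 10 CPM), the 5 largest each way among noncoding and snoRNA genes, up to 6 called members per list, and mating-type genes. The pho1 neighbourhood, cmt1, prz1, gal1, gal7, tim54, pdp2, fba1, pdc101, ste11, spk1, bgs3 and the gene-length, antisense-pair and rank descriptions were chosen after values had been seen. From the 35 written lists, 40 entries whose deposited product text names another function were dropped after values had been seen. With them kept, higher and lower counts were 12 and 1 for ribosome biogenesis, 3 and 0 for aminoacyl-tRNA synthetases, 4 and 4 for phosphate acquisition, 2 and 2 for termination, 7 and 5 for iron, 1 and 3 for copper and zinc and 1 and 3 for hypoxia; no other list's counts changed. Symbols missing from the files, gene order and lengths were read from RefSeq's gene table (ASM294v3), which matched 6836 of 6988 identifiers, so no coordinates or sequences are given. A planned count of promoter motifs was not run.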

Additional observations from a re-analysis of the deposited data

Results flagged for a closer look

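The strain difference at 0 h differed from its mean over 4 to 48 h by the contrast in the edgeR model, with an adjusted p under 0.05 and at least 2-fold, for 1018 genes in the positive and 1152 in the negative direction. Each of the 30 genes with the largest rises and falls at 0 h was among them, which their choice favours. The following values are the log2 strain difference at 0 h minus that at 4 to 48 h.

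Among the falls the contrast was -10.88 for fub2, -10.11 for cmt2, -8.58 for SPAC977.18, -8.43 for SPBPB2B2.18, -8.17 for ftm2, -7.41 for fbp1, -6.47 for SPCC737.04, -6.23 for gal10, -6.08 for SPCC330.03c, -6.07 for meu27, -5.86 for mug133, -5.58 for mde6, -4.65 for mug147, -3.12 for meu7 and -1.19 for mam2. Among the rises it was 4.27 for SPAC1039.02, 4.24 for atd1, 4.22 for fra3, 4.20 for SPBPB10D8.02c, 4.12 for pho1, 3.87 for mae2, 3.69 for rps1401, 3.67 for ght2, 3.30 for SPBPB7E8.01, 2.97 for rds1, 2.92 for SPAC25B8.12c, 2.79 for ppk1, 2.28 for sro1, 1.53 for pfl7 and 1.05 for SPBPB10D8.01. Among the falls the sign of the strain difference turned at 48 h for ftm2 (5.93), fub2 (3.32), SPAC977.18 (2.77), cmt2 (1.55), SPCC330.03c (1.28), fbp1 (1.09), gal10 and mug133 (0.18), of which mug133 was not called at that time.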

How the results depend on the processing

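The balance of higher and lower calls depends on the scaling, which moves all log2 changes together. With library size alone (median shift -0.28) 494 genes were higher and 1348 lower, so 26.8% of calls were higher against 46.5%. TMM from protein-coding genes (shift -0.17) gave 632 and 1215 (34.2%), RLE size factors 801 and 1088 (42.4%), DESeq2 801 and 1094 (42.3%), the 6 libraries alone 706 and 1165 (37.7%), thinning 685 and 1095 (38.5%) and no filter 923 and 1045. Without the fold threshold 3105 genes were higher and 2357 lower. Leaving out each library in turn gave 861 to 921 higher and 1013 to 1048 lower. Same-numbered libraries did not deviate together (correlations 0.014, -0.022 and -0.042), and with the replicate block the 6 libraries gave 701 and 1158. Of 425 named results on genes 131 lost their call with library size alone, 87 with TMM from protein-coding genes, 71 after thinning, 70 with the 6 libraries alone and 32 with RLE or DESeq2. The sign changed for meu26, from -1.23 to 0.17 after thinning, with under 2 CPM in every library. Depth limits what can be said below 1 CPM, and tRNA genes most of all.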
